A study of Mus musculus with 112 samples.

Results

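The spread of heart gene expression between 6 inbred mouse strains was compared in calorie-restricted (CR) and control mice. The spread of a gene in a diet was the variance of the 6 strain means of its log2 array signal, after subtraction of the part that differences between mice of one strain put into those means. For this, 95 of the 112 arrays of the series were used, 47 CR and 48 control. The remaining arrays were 16 from the first-generation hybrid B6C3F1/J and 1 DBA/2J CR array (replicate 7), whose correlation with the mean of its group was 0.262 and which the study also set aside. A difference in spread asks which genes CR brought to a more similar level across strains, and which it drove apart.

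The 6 strains were 129S1/SvImJ, BALB/cJ, C57BL/6J, C3H/HeJ, CBA/J and DBA/2J (BALB/cJ and C57BL/6J are written Balbc/J and C57BL6/J in the labels). Each strain gave 8 CR and 8 control hearts from male mice, with 7 CR hearts used for DBA/2J. Singly housed mice had 84 kcal of food per week up to 8 weeks of age. From then on CR mice had a restricted diet while control mice stayed on the control diet, and hearts were taken at 22 weeks after an overnight fast. By the study's methods, food was cut a further time in CR mice of 2 strains, C57BL/6J and 129S1/SvImJ, and BALB/cJ mice had more food in both diets, so the same label stands for different amounts of food across strains. An inbred strain is 1 genotype, and 6 genotypes limit what can be said of mice in general.

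Inbred strains differ in gene expression because they carry different alleles of genes and of the elements that control them, and because their body composition, feeding and daily rhythm differ. A change of diet can act alike on all strains, which leaves the spread as it was, or can act more on some, which widens, narrows or reorders the strain means. In the heart, fasting and restriction are known to act on fuel use through PPAR-alpha, a receptor for fatty acids, and on the timing of the circadian clock. A spread is therefore read here together with the strain that carries it.

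The arrays carried the transcripts of heart muscle. Cardiac troponin T (Tnnt2) was between 12.55 and 13.52 and cardiac troponin I (Tnni3) between 12.71 and 13.33 on the log2 scale on all 95 arrays. The markers of atrial muscle and of fat varied far more. The mean of 9 atrial markers in C57BL/6J had a lowest, median and highest value of 6.45, 6.71 and 10.57 in CR hearts, against 7.00, 10.38 and 11.19 in control hearts, while in 129S1/SvImJ it was between 6.62 and 6.75 in CR hearts and between 6.51 and 6.75 in control hearts. Between-strain SDs of the marker means were 0.217 in CR and 0.9902 in control hearts for atrial muscle, and 0 in CR and 0.4999 in control hearts for 11 white adipocyte markers. The tests were therefore also run with these 2 marker means as covariates. In tissue RNA, fewer cells of a type and less RNA per cell cannot be told apart.

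Summed over 19938 genes, the between-strain variance was 511.4 in CR and 716.7 in control hearts, a ratio of 0.714 (jackknife SE over the 6 strains 0.193). With the atrial and white adipocyte covariates the sums were 521.5 in CR and 585.9 in control hearts, a ratio of 0.890 (SE 0.086). The ratio was 0.906 without C57BL/6J, and between 0.634 and 0.738 when any other strain was left out. C57BL/6J held 27.8% of the spread in CR and 39.6% in control hearts, or 28.5% in CR and 30.3% in control hearts with the covariates. The ratio was thus within 2 of its SEs of 1. The share held by C57BL/6J moved together with the atrial and fat markers of that strain, and how tissue was sampled was not tested.

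The same was seen in the distances between pairs of strains. Of 15 pairs, 12 were closer in CR than in control hearts, among them all 5 pairs with C57BL/6J and 7 of the other 10. 129S1/SvImJ and C57BL/6J were a root mean square of 0.267 apart in CR and 0.403 in control hearts. C3H/HeJ and DBA/2J were 0.199 apart in CR and 0.180 in control hearts, the pair that moved apart the most. With the covariates 9 of 15 pairs were closer in CR, 4 of 5 with C57BL/6J and 5 of 10 without. The pairs share strains, so these counts have no test.

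**Figure D1:**
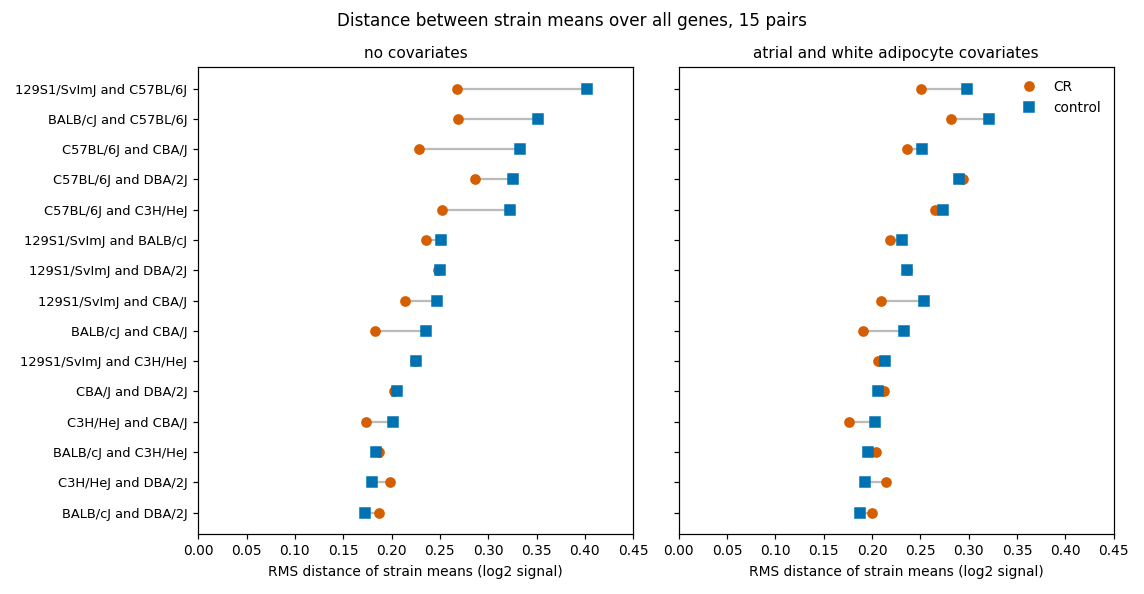
Distance between the means of 2 strains over 19938 genes, as the root mean square of log2 differences corrected for error (horizontal axis), for 15 pairs (vertical axis) in CR (circles) and control hearts (squares), without (left) and with the marker covariates (right). The 5 pairs with C57BL/6J lie at the top on the left, where all 5 were closer in CR. With the covariates their shifts are smaller.

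Gene by gene, 9 genes were closer between strains in CR and 2 were farther apart, by a limma fit with a standard error for the difference of the 2 variances (Benjamini-Hochberg adjusted p under 0.05). These are 0.0451% and 0.01% of the genes tested. Before adjustment 763 genes were closer and 201 farther apart at a p under 0.05. Together these are no more than the share of 0.05 of the 19938 genes that chance gives. A lower spread in CR was seen in 12474 genes (62.6%), or 57.7% with the covariates. With the covariates 7 genes were closer (0.0351%) and 6 farther apart (0.0301%), and 8 calls were shared by both fits. The 11 genes kept their direction when any 1 strain was left out.

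**Figure D2:**
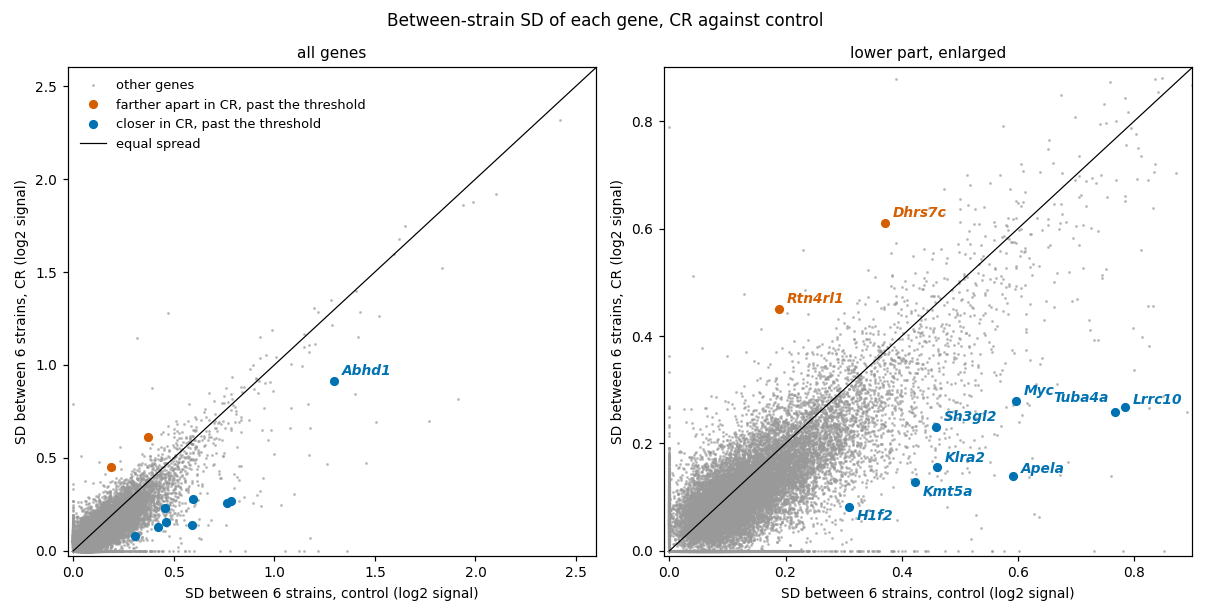
Between-strain SD of each gene in CR (vertical axis) against control hearts (horizontal axis), in log2 signal, for 19938 genes, with the lower part enlarged on the right. The 9 genes closer in CR lie below the line of equal spread and the 2 farther apart lie above it. SDs are set to 0 where the corrected variance was below 0, in 3627 genes in CR and 2756 in control hearts.

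These counts depended on a few arrays. With the DBA/2J CR array that was set aside kept in, no gene passed in either direction. Then 513 closer and 150 farther apart had an unadjusted p under 0.05, together again no more than chance gives. Conversely, 5 arrays of the 95 were picked with earlier results of these data known, and are called here those that stood apart (CBA/J control replicate 1, DBA/2J control replicate 5, BALB/cJ control replicate 7, C3H/HeJ control replicate 6 and C57BL/6J CR replicate 4). Their correlations with the rest of their groups were 0.894, 0.963, 0.974, 0.985 and 0.960, in this order. Some arrays that were kept lay below the 0.985, such as BALB/cJ CR replicate 7, DBA/2J CR replicate 6 and C57BL/6J control replicate 4 (0.980 each). Without the 5 picked arrays, 361 genes were closer (1.81%) and 31 farther apart (0.155%). Without them and with the covariates, a setting chosen after seeing the data, 27 were closer (0.135%) and 10 farther apart (0.0502%). All 11 genes passed without the 5 arrays, and 10 of the 11, all but Rtn4rl1, also passed with the covariates. An exact two-sided permutation test over 720 pairings took the 6 strains as the unit. It asked whether a strain's CR minus control difference goes with its level. It gave 1330 genes closer and 287 farther apart of 19938 at an unadjusted p under 0.05, where chance gives a share of 0.05. None passed after adjustment (lowest adjusted p 0.518). The smallest p this exact test can give is 0.00139, so with 6 strains a gene could hardly pass after adjustment. The limma test is therefore a statement on these 6 strains and the mice within them.

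Lrrc10 had the smallest p of the spread test. It encodes a leucine-rich repeat protein that is specific to heart muscle cells. In C57BL/6J its lowest, median and highest log2 signals were 8.503, 10.09 and 10.21 in CR hearts, against 7.02, 8.07 and 8.69 in control hearts. The other strains had means of 9.80 to 10.54 in CR and 9.64 to 10.42 in control hearts, against C57BL/6J means of 9.83 in CR and 8.02 in control hearts. Control C57BL/6J hearts thus lay below nearly all others, with a slight overlap with control DBA/2J, and in CR the strain was among the rest. The between-strain SD was 0.268 in CR and 0.784 in control hearts (difference of variances -0.54, 95% interval -0.72 to -0.36, limma adjusted p = 0.000915). With the covariates the difference was -0.35 (adjusted p = 0.0175). C57BL/6J carried 78.8% of the fall, and without this strain the difference was -0.03 (adjusted p = 1). The lowest CR array of C57BL/6J was replicate 4, 1 of the 5 arrays that stood apart.

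Tuba4a, which encodes an alpha-tubulin of the microtubules, was raised in CR in each strain, and most where it was low. In C57BL/6J the lowest, median and highest signals were 9.58, 10.81 and 11.11 in CR hearts and 8.39, 8.77 and 9.17 in control hearts. In 129S1/SvImJ they were 10.43, 11.26 and 11.41 in CR hearts and 9.13, 9.34 and 9.46 in control hearts. CR and control hearts did not overlap in either strain. CBA/J, the highest strain, had means of 11.32 in CR and 10.94 in control hearts. The rise was 1.93 in C57BL/6J and 1.77 in 129S1/SvImJ, and between 0.38 and 0.85 in the other 4 strains (SE 0.18 to 0.19). C57BL/6J and 129S1/SvImJ are also the strains whose CR food was cut a further time, so level and ration cannot be told apart. The gene was picked for a fall in spread, so a larger rise in low strains restates that choice. The SD between strains was 0.259 in CR and 0.767 in control hearts (difference of variances -0.52 ± 0.10 SE, adjusted p = 0.00636, and 0.0316 with the covariates). It was the only one of 12 tubulin genes to pass.

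Kmt5a encodes the enzyme that adds a single methyl group to a lysine of histone H4. Its C57BL/6J signals were 8.80, 9.85 and 10.07 in CR hearts (lowest, median, highest) and 8.58, 8.98 and 9.53 in control hearts, against strain means of 9.997 to 10.18 in CR and 9.74 to 10.24 in control hearts elsewhere. The SD was 0.128 in CR and 0.423 in control hearts (difference of variances -0.16 ± 0.03 SE, adjusted p = 0.0270, and 0.0464 with the covariates). C57BL/6J carried 71.5% of the fall. The call was lost where each group had its own variance (adjusted p = 0.217). Without C57BL/6J control replicate 4 (an array doubted after seeing the data), whose ventricular light chain Myl2 was 6.97 against a median of 12.6 over the arrays, the adjusted p was 0.0813.

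Abhd1, of the alpha/beta hydrolase family, had the largest fall in variance among the 9 genes that passed. It was low in both diets in C57BL/6J (means 6.38 in CR, 6.19 in control hearts) and DBA/2J (6.64 in CR, 6.59 in control hearts), and higher in the other 4 strains. In 129S1/SvImJ the lowest, median and highest signals were 7.58, 7.94 and 8.21 in CR hearts and 8.90, 9.09 and 9.27 in control hearts, with no overlap. CR changed it by -1.18 in 129S1/SvImJ, -0.72 in C3H/HeJ and -0.64 in CBA/J, and by 0.19 in C57BL/6J and 0.04 in DBA/2J (SE 0.16 to 0.17). CR lowered it where the strain level was high, apart from BALB/cJ (-0.18). The gene was picked for a fall in spread, so this relation restates the choice. With strains as the unit the exact permutation test gave it an unadjusted p of 0.119. The SD was 0.914 in CR and 1.299 in control hearts (difference of variances -0.85 ± 0.16 SE, adjusted p = 0.00777, and 0.04998 with the covariates). In the B6C3F1/J hybrid, which had no part in the choice, CR changed Abhd1 by -1.10 ± 0.12 SE and Tuba4a by 1.07 ± 0.09 SE. The limma adjusted p was 6.87e-05 for Abhd1 and 7.19e-06 for Tuba4a, where 0.908% of genes passed. Of the other genes past the spread test, Dhrs7c (below) passed in the hybrid and the rest did not. A diet difference within the hybrid does not test the spread between strains. With B6C3F1/J added to the spread test as a 7th strain, 8 genes were closer and 21 farther apart. The ratio of total variances was then 1.025, and 9 of the calls on the inbred strains were kept.

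A pair of genes of the nucleus, Myc and H1f2, came closer with their largest changes in 129S1/SvImJ. Myc, a transcription factor of growth, had lowest, median and highest signals of 5.71, 5.98 and 6.38 in CR and 5.18, 5.45 and 5.75 in control hearts of CBA/J. In 129S1/SvImJ these were 6.00, 6.22 and 6.88 in CR and 6.69, 6.97 and 7.02 in control hearts. The diet difference was 0.53 in CBA/J, -0.58 in 129S1/SvImJ and -0.37 in DBA/2J (SE 0.14 to 0.15). The SD of Myc was 0.278 in CR and 0.596 in control hearts (difference of variances -0.28 ± 0.06 SE, adjusted p = 0.0270, and 0.0464 with the covariates).

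H1f2 is a linker histone, and 129S1/SvImJ carried 50.4% of its fall in variance. The diet difference was -0.64 in 129S1/SvImJ, -0.51 in C57BL/6J, -0.36 in DBA/2J and 0.18 in CBA/J (SE 0.08 to 0.09). Its signals in 129S1/SvImJ were 9.13, 9.38 and 9.54 in CR and 9.80, 10.0005 and 10.20 in control hearts, with no overlap. In CBA/J they were 9.12, 9.25 and 9.53 in CR and 8.81, 9.11 and 9.32 in control hearts. The 6 strain means lay between 9.19 and 9.45 in CR and between 9.10 and 10.01 in control hearts. The SD of H1f2 was 0.082 in CR and 0.309 in control hearts (difference of variances -0.09 ± 0.02 SE, adjusted p = 0.0117, and 0.0316 with the covariates). Array signals of histone genes can take in RNA of near-identical copies.

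Sh3gl2, which encodes an endophilin of the endocytic machinery, came closer mostly through CBA/J. Its CBA/J signals were 5.47, 5.94 and 6.17 in CR and 6.07, 6.43 and 6.95 in control hearts, against means of 5.25 to 5.52 in CR and 5.18 to 5.57 in control hearts in the other strains. The SD was 0.230 in CR and 0.459 in control hearts (adjusted p = 0.0151, and 0.0416 with the covariates). CBA/J carried 75.2% of the fall, and the difference was -0.02 without it. The call was lost where each group had its own variance (adjusted p = 0.241).

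The last pair closer in CR lay near the bottom of the array's range. Apela encodes a peptide ligand of the apelin receptor, and its C57BL/6J signals were 2.86, 3.04 and 5.09 in CR and 3.40, 4.25 and 5.39 in control hearts, with means of 2.78 to 3.16 in every other group. Klra2, a receptor of the Ly49 family, had C57BL/6J signals of 2.62, 3.14 and 3.45 in CR and 3.39, 3.85 and 4.56 in control hearts. Neither passed with the covariates (adjusted p = 0.326 for Apela and 0.0962 for Klra2) or where each group had its own variance (1 for Apela and 0.741 for Klra2). Without C57BL/6J control replicate 4 the adjusted p of Apela was 0.0704.

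**Figure D3:**
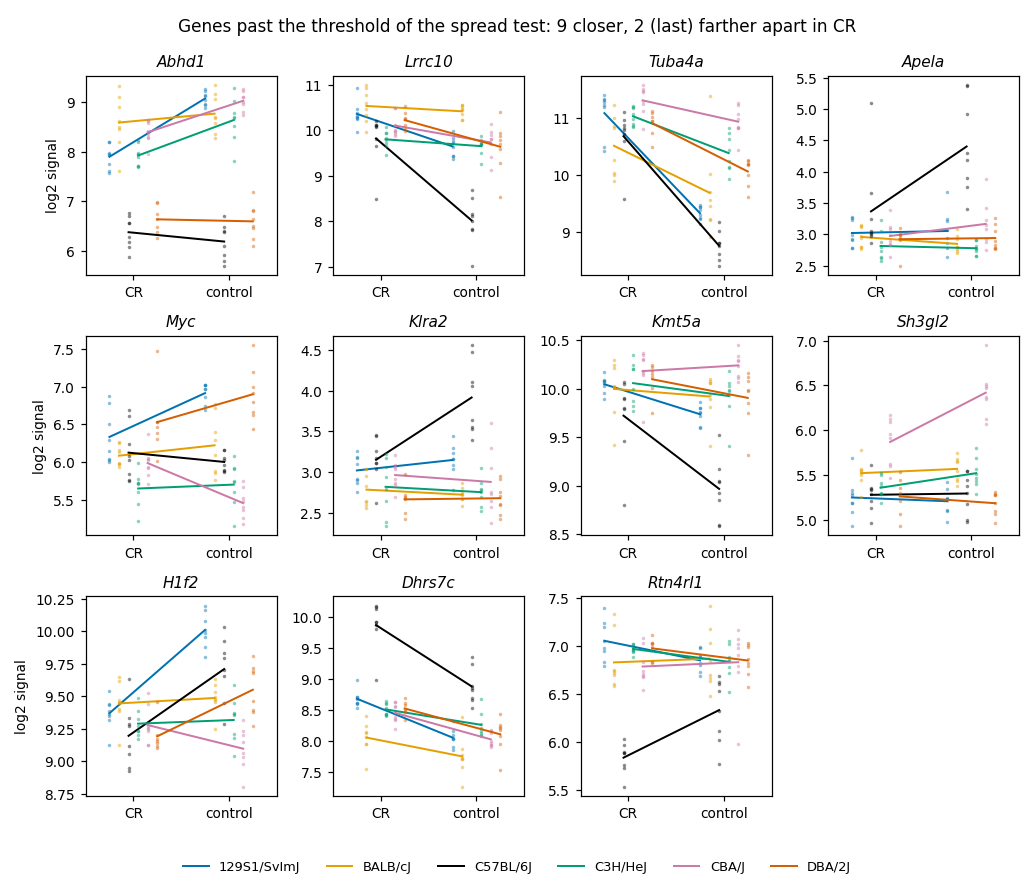
Log2 signal of the 11 genes past the spread test in CR (left) and control hearts (right) of each panel, with a point for each array and a line between the 2 means of each strain (7 arrays in DBA/2J CR, 8 elsewhere). In the 9 genes closer in CR the lines open toward the control side. In Dhrs7c and Rtn4rl1 they open toward CR.

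The 2 genes driven apart were led by C57BL/6J as well. Dhrs7c encodes a dehydrogenase of the sarcoplasmic reticulum of heart and skeletal muscle. In C57BL/6J, which was already the highest strain, its lowest, median and highest signals were 8.98, 9.91 and 10.18 in CR and 8.54, 8.84 and 9.36 in control hearts. CR raised it by 0.98 in C57BL/6J and by 0.62 in 129S1/SvImJ, and by 0.25 to 0.42 in the other strains (SE 0.11 to 0.12). The SD of Dhrs7c was 0.611 in CR and 0.371 in control hearts (difference of variances 0.24 ± 0.05 SE, adjusted p = 0.0270, and 0.04998 with the covariates). Without the strain C57BL/6J the difference was 0.02, and without C57BL/6J control replicate 4 the adjusted p was 0.0544. Where each group had its own variance it was 0.788. In B6C3F1/J, Dhrs7c was higher by 0.592 in CR (adjusted p = 0.000978).

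Rtn4rl1, a relative of the Nogo receptor, was lowest in C57BL/6J in both diets and went lower in CR. Its signals there were 5.53, 5.88 and 6.02 in CR and 5.77, 6.42 and 6.68 in control hearts, while the other strains had means of 6.78 to 7.05 in CR and 6.83 to 6.86 in control hearts. The SD was 0.4499 in CR and 0.189 in control hearts (difference of variances 0.17 ± 0.04 SE, adjusted p = 0.0270), and it did not pass with the covariates (adjusted p = 0.149) or without C57BL/6J control replicate 4 (adjusted p = 0.0683).

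DBA/2J stood alone in a pair of genes just short of the threshold. Mmp12, the elastase of macrophages, had DBA/2J signals of 5.63, 7.67 and 10.60 in CR and 4.99, 5.604 and 8.44 in control hearts, with means of 4.61 to 5.28 in CR and 4.79 to 5.35 in control hearts elsewhere. Atp6v0d2, a subunit of the proton pump of macrophages and osteoclasts, had 3.69, 6.23 and 8.54 in CR and 3.10, 3.55 and 6.48 in control hearts of DBA/2J. The DBA/2J hearts of a diet differed widely among themselves, and the 2 diets overlapped. The SD of Mmp12 was 1.28 in CR and 0.471 in control hearts (adjusted p = 0.0876), and that of Atp6v0d2 was 1.14 in CR and 0.318 in control hearts (adjusted p = 0.103). Both passed with the covariates (adjusted p = 0.0416 for Mmp12 and 0.04998 for Atp6v0d2). These genes were named after their values were seen.

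Without the 5 arrays and with the covariates, Des, Hspb7 and Got2 were among the 27 closer in CR, again named after their values were seen. In the same fit 0.135% of all genes were closer, so a count of 0 in a short list says little. The counts were 0 of 9 ventricular markers, 0 of 22 genes of calcium handling and the sarcomere and 0 of 20 cardiac ion channels. Of 16 genes of cardiac stress and of 9 smooth muscle markers 1 was closer (Des in both), as was 1 of 16 heat shock chaperones (Hspb7). Des (desmin, the intermediate filament of muscle) had an SD of 0.121 in CR and 0.385 in control hearts without the 5 arrays, and Hspb7 (a small heat shock protein of heart) 0.164 in CR and 0.496 in control hearts. Got2, the mitochondrial aspartate aminotransferase, had 0.147 in CR and 0.415 in control hearts. The limma adjusted p with the covariates was 0.0126 for Des, 0.0151 for Hspb7 and 0.0289 for Got2, and on the 95 arrays none of the 3 passed. C57BL/6J means were 11.50 in CR and 11.12 in control hearts for Des, 11.20 in CR and 10.70 in control hearts for Hspb7, and 11.98 in CR and 11.48 in control hearts for Got2. C57BL/6J control hearts had the lowest mean of the 12 groups in each. Ventricular markers as a whole had an SD of 0.077 in CR and 0.232 in control hearts over 9 genes, with C57BL/6J means of 11.87 in CR and 11.39 in control hearts. Whether these genes follow the share of ventricle in the C57BL/6J control samples beyond the 2 covariates was not tested.

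A strain can answer CR differently without a change in total spread, when strains change order. By a moderated F test of the strain by diet interaction (limma, adjusted p under 0.05), 66 genes (0.331%) differed in their response between strains, 49 of them with a lower and 17 with a higher spread in CR. With the covariates there were 109 (0.547%), and 54 passed both ways. Without the 5 arrays 1382 genes passed (6.93%), and 456 (2.29%) when the covariates were also in the fit. Before adjustment 1550 of 19938 genes had an interaction p under 0.05, where chance gives a share of 0.05. The amount of food in CR also differed between strains, so a strain's response and its ration cannot be told apart.

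Genes of the circadian clock, which drives daily rhythms of expression in the heart, held 7 of the 66. The clock runs through the activators Clock and Arntl (BMAL1), which bind E-boxes in DNA and switch on the repressors Per and Cry, the receptors Nr1d1 and Nr1d2, and the output factors Dbp, Tef and Hlf. Of 17 clock genes measured, 7 passed the interaction test (Clock, Ciart, Dbp, Arntl, Bhlhe41, Tef and Nr1d2), against 0.331% of all genes, and with the covariates 9, with Per2 and Hlf added. The between-strain SD of the clock genes had a median of 0.162 in CR and 0.237 in control hearts. It was lower in CR in 14 of 17, beside 62.6% of all genes, and none passed the spread test on the 95 arrays. Without the 5 arrays that stood apart Arntl passed as closer (adjusted p = 0.0341, and 0.132 with the covariates), and Per3 passed only with the covariates as well (0.0261, and 0.198 without them). All 7 genes kept their interaction call with the covariates. The count of interaction calls was 2 without 129S1/SvImJ and 3 with the DBA/2J CR array kept in. The clock list was written with earlier results of these data known. The sources used here do not give the hour at which each heart was taken, so strain, diet, amount of food and hour cannot be told apart.

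The promoters of 3 clock genes with an interaction call are shown because they hold the E-box that Clock and Arntl bind. They are RefSeq sequences of GRCm38.p6, 300 bases each, on the gene's strand, with the E-box (CACGTG, the same on both strands) in capitals. Ciart lies at chr3:95882179-95882478 on the minus strand, Bhlhe41 at chr6:145865371-145865670 on the minus strand and Tef, at 1 of its 2 starts, at chr15:81802423-81802722 on the plus strand.
Ciart: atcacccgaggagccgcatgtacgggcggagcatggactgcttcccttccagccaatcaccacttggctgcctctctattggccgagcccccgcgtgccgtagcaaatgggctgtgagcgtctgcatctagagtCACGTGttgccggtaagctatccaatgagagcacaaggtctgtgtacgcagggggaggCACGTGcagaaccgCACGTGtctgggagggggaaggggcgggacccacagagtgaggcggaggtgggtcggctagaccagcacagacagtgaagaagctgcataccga
Bhlhe41: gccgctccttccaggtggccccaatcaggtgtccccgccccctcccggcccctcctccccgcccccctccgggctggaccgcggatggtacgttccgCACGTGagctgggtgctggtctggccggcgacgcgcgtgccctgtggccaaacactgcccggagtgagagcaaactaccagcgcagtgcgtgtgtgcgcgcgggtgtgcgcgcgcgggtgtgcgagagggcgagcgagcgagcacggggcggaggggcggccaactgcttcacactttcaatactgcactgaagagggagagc
Tef: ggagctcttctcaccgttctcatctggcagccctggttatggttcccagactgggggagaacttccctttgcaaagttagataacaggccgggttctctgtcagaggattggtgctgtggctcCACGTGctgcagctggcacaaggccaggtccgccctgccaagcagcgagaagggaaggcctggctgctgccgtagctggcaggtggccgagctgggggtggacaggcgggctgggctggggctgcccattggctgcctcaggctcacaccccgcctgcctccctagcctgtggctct
Ciart held 3 E-boxes and each of the others 1. Over all 32851 RefSeq promoters of this length 7.15% held the motif, as did 6 of the 20 promoters of the 15 clock genes that matched the table. These 6 belonged to 5 genes (Bhlhe41, Ciart, Cry1, Per1 and Tef), of which Cry1 and Per1 had no interaction call. Clock, Arntl, Dbp and Nr1d2, which had a call, were not among the 5. A match is a description of the letters and not a sign of binding.

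The activators moved most in 2 strains. Arntl in 129S1/SvImJ had lowest, median and highest signals of 4.86, 5.14 and 5.36 in CR and 5.90, 6.25 and 7.11 in control hearts, with no overlap. In C57BL/6J Arntl had 5.13, 5.61 and 5.90 in CR and 5.38, 6.42 and 7.21 in control hearts. The 6 strain means of Arntl were 5.14 to 5.63 in CR and 5.34 to 6.40 in control hearts, so 129S1/SvImJ and C57BL/6J, high in control hearts, came down to the others in CR (SD 0.140 in CR and 0.461 in control hearts, interaction adjusted p = 0.000868, spread adjusted p = 0.796). Clock fell by 0.49 in 129S1/SvImJ and by 0.54 in C57BL/6J and changed by -0.21 to 0.09 in the other strains (SE 0.08, interaction adjusted p = 5.46e-05). DBA/2J had smaller differences the same way, of -0.33 for Arntl (SE 0.21) and -0.21 for Clock (SE 0.08).

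Tef, an output factor, moved the other way in the same strains. It had signals of 8.02, 8.23 and 8.36 in CR and 7.44, 7.68 and 7.85 in control hearts of 129S1/SvImJ, and 7.45, 8.08 and 8.27 in CR and 6.88, 7.50 and 7.63 in control hearts of C57BL/6J. The rise of Tef was 0.56 in 129S1/SvImJ and 0.67 in C57BL/6J, against 0.01 to 0.29 in the other strains (SE 0.11 to 0.12, interaction adjusted p = 0.0190). Per2, a repressor, had differences of 0.50 in 129S1/SvImJ and 0.63 in C57BL/6J, and its adjusted p for the interaction was 0.0624. Nr1d1, also a target of the activators, did not rise with Tef and Per2. Its differences were -0.54 in 129S1/SvImJ and -0.48 in C57BL/6J, and -0.22 to -0.86 in the other strains (SE 0.20).

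CBA/J and C3H/HeJ went the opposite way for a further group. Ciart, a repressor of the clock, had signals of 5.89, 6.30 and 6.62 in CR and 6.77, 7.41 and 7.75 in control hearts of CBA/J, with no overlap. In C57BL/6J they were 5.59, 6.74 and 7.44 in CR and 4.69, 6.15 and 6.88 in control hearts. The diet difference of Ciart was -1.12 in CBA/J, -0.64 in C3H/HeJ and 0.80 in C57BL/6J (SE 0.21 to 0.22, interaction adjusted p = 0.000162), so CBA/J had the lowest mean in CR, next to C3H/HeJ, and the highest in control hearts, next to 129S1/SvImJ. Its SD was 0.468 in CR and 0.503 in control hearts (spread adjusted p = 0.998). Dbp, an output factor, changed by -0.50 in CBA/J and by 0.47 in 129S1/SvImJ (SE 0.12, interaction adjusted p = 0.000657). Bhlhe41, a repressor that itself binds E-boxes, changed by -0.53 in CBA/J and by 0.23 in 129S1/SvImJ (SE 0.11, interaction adjusted p = 0.00598).

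**Figure D4:**
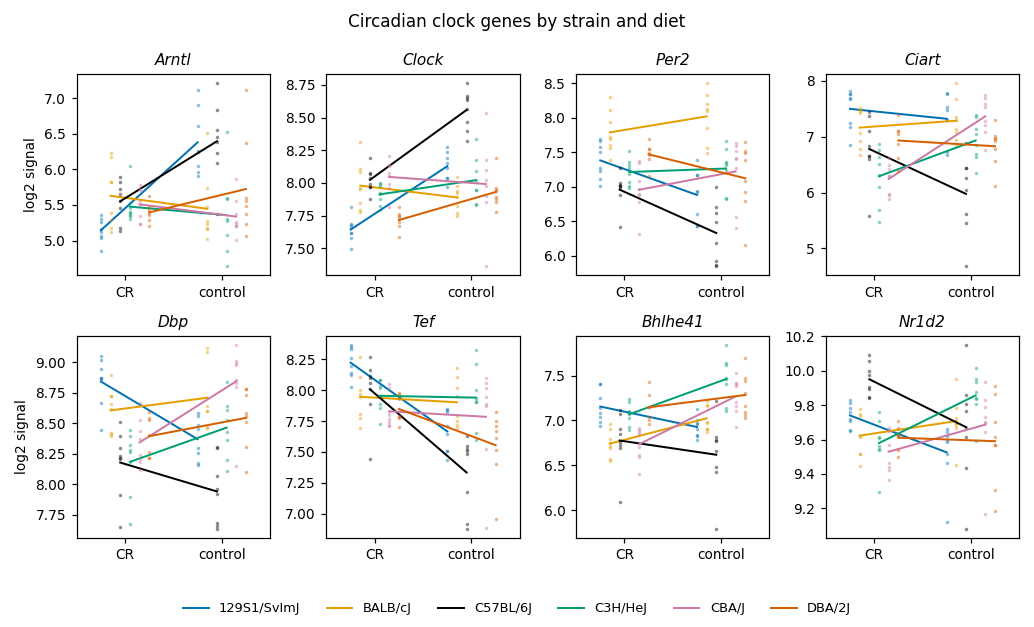
Log2 signal of 8 clock genes in CR (left) and control hearts (right) of each panel, with a point for each array and a line between the 2 means of each strain (7 arrays in DBA/2J CR, 8 elsewhere). Arntl and Clock fall most in CR in 129S1/SvImJ and C57BL/6J, where Tef rises most. Ciart falls in CBA/J and C3H/HeJ. Per2 did not pass the interaction test.

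Targets of PPAR-alpha, the receptor that switches on fatty acid use in a fast, held 5 interaction calls of 20 genes measured (Angptl4, Ucp3, Pdk4, Acot1 and Acot2), against 0.331% of all genes, and 7 with the covariates, against 0.547%. The 5 genes were among those 7. Without 129S1/SvImJ none of the 20 passed, and with the DBA/2J CR array kept in 3 did. Angptl4 and Pdk4 also stood on the list of the glucocorticoid response. That list had 2 calls of 18 genes, and 3 with the covariates. Both lists were written with earlier results of these data known. In 129S1/SvImJ the mean of 11 endothelial markers was 8.60 ± 0.06 in CR and 8.86 ± 0.08 in control hearts, and that of 12 macrophage markers 6.89 ± 0.17 in CR and 6.63 ± 0.07 in control hearts (SD, n = 8 each). The part of these shifts in the calls was not tested. Angptl4, an inhibitor of lipoprotein lipase, had 129S1/SvImJ signals of 5.39, 5.90 and 6.79 in CR and 6.40, 7.36 and 8.17 in control hearts. In CBA/J they were 6.66, 7.56 and 8.12 in CR and 5.79, 6.46 and 7.41 in control hearts. The diet difference of Angptl4 was -1.44 in 129S1/SvImJ, -0.81 in C57BL/6J and 0.93 in CBA/J (SE 0.24 to 0.25, interaction adjusted p = 1.04e-05). The SD of Angptl4 was 0.571 in CR and 0.496 in control hearts and did not pass the spread test (adjusted p = 0.998). Without the strain 129S1/SvImJ its interaction adjusted p was 0.0559.

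Pdk4, the kinase that holds back glucose oxidation, had signals of 9.63, 11.004 and 12.12 in CR and 12.21, 12.38 and 12.57 in control hearts of 129S1/SvImJ. The highest CR heart lay just under the lowest control heart, and the CR hearts differed widely among themselves. The difference was -1.56 in 129S1/SvImJ and 0.34 in CBA/J (SE 0.22 to 0.23, interaction adjusted p = 0.000168). Without 129S1/SvImJ the interaction adjusted p of Pdk4 was 0.414, and with the DBA/2J CR array kept in it was 0.445.

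Ucp3, an uncoupling protein of mitochondria, and the acyl-CoA thioesterases Acot1 and Acot2 also fell in 129S1/SvImJ. Ucp3 changed by -1.13 in 129S1/SvImJ and by 1.12 in CBA/J (SE 0.23 to 0.24), which left an SD of 0.194 in CR and 0.544 in control hearts (limma interaction adjusted p = 0.000107, with the spread not past the threshold). Acot1 had 129S1/SvImJ signals of 4.88, 5.35 and 6.44 in CR and 6.81, 6.93 and 7.27 in control hearts, with no overlap. It changed by -1.56 in 129S1/SvImJ and by -0.67 in C57BL/6J, and by -0.46 to 0.12 in the other strains (SE 0.20 to 0.21, interaction adjusted p = 0.000761). Acot2 changed by -1.36 in 129S1/SvImJ and by -0.59 to -0.06 in the others (SE 0.18 to 0.19). In control hearts 129S1/SvImJ had the highest mean of all 6 strains for Pdk4, Ucp3, Acot1 and Acot2, and in CR the lowest for Angptl4, Pdk4, Ucp3 and Acot1.

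**Figure D5:**
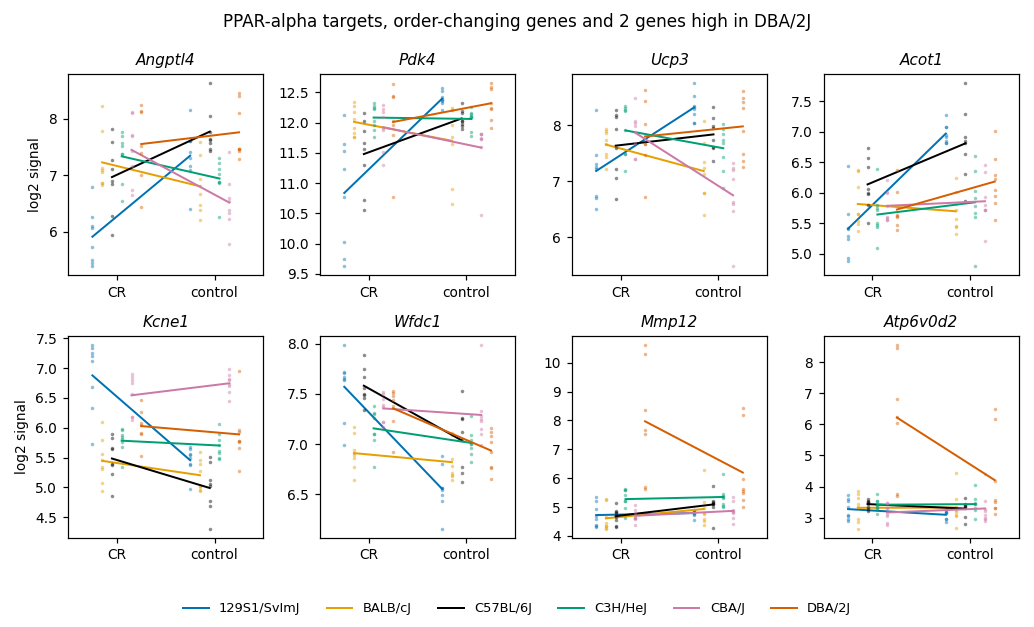
Log2 signal of 4 PPAR-alpha targets (Angptl4, Pdk4, Ucp3, Acot1), 2 genes whose strains changed order (Kcne1, Wfdc1) and 2 genes high in DBA/2J (Mmp12, Atp6v0d2), in CR (left) and control hearts (right) of each panel. Points are arrays and lines join the 2 means of a strain (7 arrays in DBA/2J CR, 8 elsewhere). The 129S1/SvImJ line crosses those of other strains in each of the first 6 panels, and DBA/2J stands alone in the last 2.

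Among the other genes whose strains changed order, Kcne1, a subunit of the slow potassium channel, had 129S1/SvImJ signals of 5.73, 7.15 and 7.38 in CR and 4.97, 5.52 and 5.68 in control hearts, again with no overlap. It rose by 1.42 there, and the differences in the other 5 strains were -0.20 to 0.49 (SE 0.17, interaction adjusted p = 5.88e-05, and 0.773 without 129S1/SvImJ). Wfdc1, a secreted protein with a domain of protease inhibitors, rose by 1.02 in 129S1/SvImJ and by 0.54 in C57BL/6J, against 0.07 to 0.42 elsewhere (SE 0.11, interaction adjusted p = 7.58e-05). Ier3, an early response gene, changed by 0.56 in C57BL/6J and by -0.47 in CBA/J (SE 0.11, interaction adjusted p = 0.000316). Spon2, a secreted matrix protein, changed by -0.50 in 129S1/SvImJ and by -0.42 in C57BL/6J and by -0.06 to 0.11 elsewhere (SE 0.10, interaction adjusted p = 0.0143). Kcne1, Wfdc1, Ier3 and Spon2 kept their interaction calls with the covariates.

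Of 28 genes of iron uptake, export and haem 1 had an interaction call (Slc40a1), as did 2 of 26 glutathione and NRF2 genes (Aox1 and Gclm), against 0.331% of all genes. All 3 kept the call with the covariates and had their largest difference in 129S1/SvImJ. Slc40a1 (ferroportin, the iron exporter) had strain means of 6.67 to 7.18 in CR and 7.01 to 7.84 in control hearts, with a difference of -1.05 in 129S1/SvImJ and -0.05 in CBA/J (SE 0.13 to 0.14, interaction adjusted p = 0.00363). Aox1, aldehyde oxidase, changed by -1.11 in 129S1/SvImJ and by -0.16 in CBA/J (SE 0.12 to 0.13, adjusted p = 0.0176). Gclm, which encodes part of glutamate-cysteine ligase in glutathione synthesis, changed by -1.10 in 129S1/SvImJ and by -0.20 in BALB/cJ (SE 0.12 to 0.13, adjusted p = 0.0209). The mean was lower in CR in each of the 6 strains for all 3, but by little more than the SE or less in CBA/J for Slc40a1 and Aox1 and in BALB/cJ for Slc40a1 (-0.16).

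Over 31 pathway lists, Tuba4a was the only member of any list to pass the spread test on the 95 arrays. Genes of MHC class II, which present antigen, had a median SD of 0.398 in CR and 0.799 in control hearts, with 8 of 9 lower in CR and 5 with an unadjusted p under 0.05, beside 62.6% of all genes lower. H2-Ab1, of this list, had C57BL/6J signals of 7.74, 7.80 and 8.51 in CR and 8.27, 9.44 and 9.88 in control hearts, and an SD of 0.663 in CR and 1.18 in control hearts (adjusted p = 0.0645, and 0.557 with the covariates). C57BL/6J carried 62.8% of its fall. Macrophage markers had 11 of 12 genes with a lower spread in CR. The mean of 10 lymphocyte markers in C57BL/6J was 4.89 in CR and 5.29 in control hearts, with a between-strain SD of 0.056 in CR and 0.142 in control hearts, and the part of these cells in the result was not tested. The alleles of MHC genes differ between these strains, and probes follow the reference genome.

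Over all genes 62.6% had a lower spread in CR, or 57.7% with the covariates. Heat shock chaperones had 15 of 16 genes with a lower spread in CR (16 of 16 with the covariates). Their median SD was 0.250 in CR and 0.433 in control hearts, and none passed the threshold. Hspa1a, an inducible Hsp70, was highest in BALB/cJ, at 6.61, 8.59 and 10.27 in CR and 6.32, 9.86 and 10.96 in control hearts, and the spread among hearts of this strain was as wide as the gap to the others. Its SD was 0.791 in CR and 1.17 in control hearts (unadjusted p = 0.0179, adjusted p = 0.943). Genes of mitochondrial fatty acid oxidation had 17 of 18 lower in CR (15 with the covariates), with a median SD of 0.119 in CR and 0.169 in control hearts and none with an unadjusted p under 0.05, or 2 closer with the covariates. Those of the respiratory chain had 20 of 44 lower, and 36 of 44 with the covariates, so their direction rested on the fit.

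The 6 genes that differed most between strains in both diets did not pass the spread test. Gdpd3, a lysophospholipase D family member, was 9.09 in CR and 9.35 in control hearts of 129S1/SvImJ, and 4.31 to 4.73 in CR and 4.19 to 4.70 in control hearts of the others. Mcpt2, a mast cell protease, was 6.87 in CR and 6.64 in control hearts of DBA/2J, and 2.43 to 2.64 in CR and 2.43 to 2.87 in control hearts elsewhere. AI506816, Klk1b22, H2-Ea and Olfr872 completed the 6 widest, with SDs of 1.52 to 2.32 in CR and 1.83 to 2.42 in control hearts. None passed either test, without or with the covariates (spread adjusted p of 0.605 for Olfr872, 0.817 for Gdpd3 and 0.998 for the other 4), though Olfr872 was closer in CR without the 5 arrays that stood apart (adjusted p = 0.0249). Gene sequence differences under the probes can also give such gaps and were not examined.

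The spread between mice of one strain and diet was the yardstick for these tests. The residual variance in CR over that in control hearts had a median of 0.792 over genes, with median residual SDs of 0.201 in CR and 0.227 in control hearts. This ratio was 1.04 without the 5 arrays that stood apart and 0.994 without CBA/J control replicate 1 alone, and 1.55 with the DBA/2J CR array kept in, so its direction rested on single arrays.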

How the data were processed

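Hearts of 112 male mice were measured by the authors, 5 µg of total RNA each, on Affymetrix Mouse Gene 1.0 ST arrays. The deposited values are log2 signals that the authors made with RMA in Affymetrix Expression Console (versions not given in the sources used here), 1 column per heart and 35556 probe sets. The table's lowest signal was 0.463 and its highest 14.2. Arrays carry no read depth, so the number of hearts limits the precision.

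Probe sets with 1 gene symbol (21789, with 1621 naming several and 12146 none) were reduced to 19938 genes by the brightest probe set, and 19855 matched the RefSeq gene table. limma 3.58.1 in R 4.3.3 fitted a mean for each of 12 groups. The corrected variance of strain means in control was subtracted from that in CR, with a delta method standard error from the moderated residual variance and a two-sided p, Benjamini-Hochberg adjusted over all genes with a threshold of 0.05. The interaction was a moderated F test of 5 contrasts. The method was tested on simulated data. Covariates were the means of 9 atrial and 11 white adipocyte markers on each array. Genes are named where they had the 12 largest falls or rises past the spread test, where (8 each way) they also passed with the covariates and kept their sign without any strain, as the 8 smallest interaction p-values with an unadjusted spread p above 0.2, as the 6 widest in both diets, and as up to 4 members of a list by spread p. Others are said to have been chosen after their values were seen or belong to a list with an interaction call. Members, gene lists (31 of pathways, 16 of markers) and the 5 arrays that stood apart were chosen with earlier results of these data known. Replicate numbers were not used to pair samples in the main fit. Each replicate is a mouse.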

Additional observations from a re-analysis of the deposited data

Results flagged for a closer look

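In 14 of 132 sets of 7 or 8 hearts, 11 genes by 12 groups, 1 heart stood off from the rest by more than Dixon's limit, which chance gives in about 1 set in 20. The gap is given as a share of the range of the set. C57BL/6J CR replicate 4, 1 of the 5 arrays that stood apart, was the lowest for Lrrc10 (8.503 against a next value of 9.66, share 0.676), Tuba4a (9.58 against 10.6, 0.666) and Dhrs7c (8.98 against 9.81, 0.688) and the highest for Apela (5.09 against 3.66, 0.639). Kmt5a was lowest in BALB/cJ control replicate 7 (0.578), C3H/HeJ control replicate 6 (0.532) and CBA/J CR replicate 2 (0.684), and Rtn4rl1 in CBA/J control replicate 1 (5.97 against 6.73, 0.632). DBA/2J CR replicate 6 was highest for Myc (7.47 against 6.54, 0.64) and H1f2 (9.46 against 9.20, 0.712). The rest were Tuba4a in BALB/cJ control replicate 3 (highest, 0.553), Apela in DBA/2J CR replicate 8 (lowest, 0.685), H1f2 in BALB/cJ control replicate 2 (lowest, 0.558) and Dhrs7c in 129S1/SvImJ CR replicate 2 (highest, 0.603).

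The response to CR differed between strains (limma interaction, adjusted p) for Angptl4 (1.04e-05), Kcne1 (5.88e-05), Wfdc1 (7.58e-05), Ciart (0.000162), Pdk4 (0.000168), Ier3 (0.000316), Dbp (0.000657) and Spon2 (0.0143). The genes of the spread test were chosen on the same arrays for a change of their strain means, so their interaction p-values restate that choice and are no further evidence. They passed for 9 of the 11, H1f2 (4.89e-06), Lrrc10 (8.07e-06), Tuba4a (5.35e-05), Abhd1 (0.000162), Myc (0.00599), Klra2 (0.0176), Dhrs7c (0.0368), Sh3gl2 (0.0415) and Apela (0.0465). With the covariates Apela (0.125), Dhrs7c (0.0607) and Sh3gl2 (0.0566) did not pass. In the B6C3F1/J arrays, outside the comparison of inbred strains, CR changed Abhd1 by -1.10, Tuba4a by 1.07 and Dhrs7c by 0.592 on the log2 scale, and the other 8 genes did not pass.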

How the results depend on the processing

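The 11 genes of the spread test kept their direction under every alternative run. Counts of genes closer, farther apart and with an interaction call were 9, 2 and 66. With array weights they were 110, 60 and 1559, without the 5 arrays that stood apart 361, 31 and 1382, with those left out and the covariates 27, 10 and 456, and with the DBA/2J CR array kept in 0, 0 and 22. The covariates gave 6 farther apart and 109 interaction calls, 4 marker covariates 5 and 174, and B6C3F1/J as a 7th strain 21 and 142 with a ratio of total variances of 1.03. Each group's own variance gave 5 closer and kept 6 of the 11 calls, with Apela, Klra2, Kmt5a, Sh3gl2 and Dhrs7c lost, and a new quantile normalization 1 farther apart. Without 129S1/SvImJ the counts were 1, 0 and 9, and without CBA/J 3, 1 and 40. Without C57BL/6J 2 were closer and 0 farther apart, without C3H/HeJ 5 and 0, without DBA/2J 3 and 0, and without BALB/cJ 1 was farther apart. With strains as the unit, 0 passed in both directions by the exact test. Leaving out, 1 at a time, the 5 arrays that stood apart and C57BL/6J control replicate 4 (this last chosen after seeing the data) gave 7 to 18 closer, 0 to 5 farther apart, 67 to 174 interaction calls and ratios of 0.688 to 0.711. The highest counts of genes closer and of interaction calls came without C57BL/6J CR replicate 4, and the 0 farther apart without C57BL/6J control replicate 4. The cause was not tested. With the replicate number as a block the counts were 9, 2 and 80. Of 47 same-numbered pairs of CR and control hearts, 23 correlated above 0.1 in their deviations. The median correlation was 0.084 for the same number and 0.011 for different numbers. Whether the numbers pair the hearts was not tested, and the main fit did not pair them. The range of strain means was narrower in CR for 66.3% of genes. Median centering, a filter on low signals, the mean of probe sets, and trended robust variances kept each count within 1.5 times.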

Other observations

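Genes of brown fat and atrium had wide differences in spread that did not pass the test. Ucp1, the uncoupling protein of brown fat, had C57BL/6J signals of 4.45, 5.34 and 12.47 in CR and 6.08, 10.78 and 12.50 in control hearts (lowest, median, highest), and Myl7, the atrial light chain, 5.19, 6.08 and 12.52 in CR and 6.03, 11.87 and 12.47 in control hearts. The corrected SD of Ucp1 was 0.816 in CR and 1.91 in control hearts, and that of Myl7 0.697 in CR and 1.77 in control hearts (adjusted p = 0.998 for each). With the covariates the SD of Ucp1 was 0.602 in CR and 0.747 in control hearts, and that of Myl7 was 0.287 in CR and 0 in control hearts, so the direction for Myl7, itself 1 of the 9 atrial markers in the covariate, turned.

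Gm4956 and Cyfip2 had a higher spread in CR that passed only under some settings. Gm4956 was 5.05 in CR and 4.41 in control hearts of 129S1/SvImJ (means), and had C57BL/6J signals of 4.00, 5.03 and 5.31 in CR and 3.40, 4.11 and 4.30 in control hearts (spread adjusted p = 0.0618, and 0.0316 with the covariates). Cyfip2, a partner of the actin regulator WAVE, had 6.60, 9.19 and 9.70 in CR and 6.25, 7.92 and 9.07 in control hearts of C57BL/6J (spread adjusted p = 0.408, and 0.00231 without the 5 arrays that stood apart), and this strain carried 81.9% of its change. Both were chosen after their values were seen.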
